A study of Sus scrofa with 61 samples.

Results

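The genes described here encode splicing factors and heterogeneous nuclear ribonucleoproteins (hnRNPs), measured in the liver of pigs from late gestation to young adulthood. They were chosen by name alone: every gene whose single symbol in the platform annotation begins with SRSF, SNRP, SF3A, SF3B, HNRNP or PRPF, or with LSM and a digit. This gave 60 genes of the 6765 genes with 1 symbol on the array, namely 11 SRSF, 10 SNRP, 7 SF3, 17 HNRNP, 9 PRPF and 6 LSM genes, and 95 probe-sets. Each gene was represented by the probe-set with the highest mean log2 signal over all arrays, a choice that mattered for the 21 genes with several probe-sets.

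All animals were LP offspring, that is, offspring of German Landrace gilts that received a low protein diet during gestation, and liver RNA of 1 animal was hybridised to each of 61 Affymetrix porcine arrays. The stages were 94 days post conception (94 dpc, 16 fetuses), 1 day post natum (1 dpn, 14 piglets), 28 dpn (15 pigs) and 188 dpn (16 pigs). Arrays of offspring of the adequate protein diet were not analysed here, so nothing below speaks of the effect of the diet. Stage was compared over period I (94 dpc to 1 dpn), period II (1 dpn to 28 dpn), period III (28 dpn to 188 dpn) and the whole course (94 dpc to 188 dpn). The comparisons share animals and are not independent. The fetuses were taken by Caesarean section in an experiment of their own, so in period I and over the whole course the effects of age and of experiment cannot be told apart, and pigs at 28 dpn and 188 dpn were fasted overnight, which is not stated for newborns. Gilts contributed siblings that the labels do not identify, so p-values treat related animals as independent.

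Introns are removed from pre-mRNA by the spliceosome, which is built on small nuclear RNAs (snRNAs) wrapped in Sm or LSm proteins and carries factors such as the SF3A and SF3B complexes, which hold U2 snRNA on the branch site. Which sites are used depends on proteins that bind the pre-mRNA: serine and arginine rich (SR) proteins of the SRSF family mostly favour the use of an exon, and hnRNPs often oppose it and also package, export and stabilise mRNA. The fetal liver is a blood-forming, growing organ, whereas the adult liver is mostly made of resting hepatocytes, and many splicing choices are known to switch in the weeks after birth.

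The deposited intensities are scaled to one common trimmed mean per array, but the median signal of all probe-sets fell with age, from 167 in fetuses to 150 in newborns, 118 in pigs at 28 dpn and 102 in young adults (median over the arrays of the stage). Directions are therefore given for the deposited scaling and for quantile normalization and subtraction of each array median. The median log2 change of all genes tested over the whole course was -0.20 in the deposited scaling, 0.18 after quantile normalization and 0.55 after subtraction of array medians. The splicing genes were well measured: at each stage the mean of 57 of the 60 genes lay above the array median. RNA ends differed between stages. The 3' minus 5' log2 difference of the beta-actin control probe-sets averaged 2.27, 1.78, 3.94 and 4.03 at the 4 stages in order of age, and that of GAPDH 1.05, 0.39, 0.79 and 0.64. For the EF1A control probe-sets it averaged -0.02, -0.14, 0.39 and 0.56. Cell type markers moved as well. All 14 hepatocyte markers on the array lay above the array median at every stage, the summed signal of 8 erythroid markers ranged from 3050 to 32100 at 94 dpc against 1195 to 4249 at 1 dpn, and the summed signal of 7 granulocyte markers had medians of 13350, 4859, 1134 and 958.3. The part of RNA quality and cell composition in the results below was not tested, and in bulk tissue fewer cells of a type and less RNA per cell cannot be told apart.

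Most splicing genes fell as the liver matured. Over the whole course, 50 of the 60 genes passed the filters on signal and spread, and all 50 were called, 10 higher and 40 lower at 188 dpn, at P and q at or below 0.05 by limma. In each of the 4 comparisons every probe-set with an unadjusted P at or below 0.05 also had such a q, so counts at the unadjusted P are the same. Among all 5051 genes tested, 36.7% were called higher and 48% lower. The filter on spread takes the SD over both stages and so favours genes that differ between them. With it dropped, 10 splicing genes were higher and 42 lower, and not every gene tested was called. LSM12 passed the filter on signal through 188 dpn alone and PRPF38B through 94 dpc alone, so these genes had to differ. The median log2 change of the 60 genes was -0.95. After quantile normalization 9 were higher and 37 lower of 50 tested, against 47% higher and 38.4% lower of all genes. After subtraction of array medians 21 were higher and 31 lower of 56 tested, against 60.7% higher and 24.9% lower of all genes under that scaling. Relative to the median of all genes tested, the median splicing gene was lower under each scaling, with a difference of -0.75, -1.05 and -0.86 on the log2 scale in the deposited, quantile and median-subtracted values. In 21 splicing genes every animal at 188 dpn lay below every animal at 94 dpc, and in none was the reverse seen. Of all genes tested, 16.3% separated the stages in that way downwards and 13.2% upwards.

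Falls were called in each of the 3 periods. In period I, 48 genes were tested, of which 12 were called higher and 25 lower, when 33.9% of all genes tested were higher and 35.4% lower. After subtraction of array medians the split was 16 higher and 18 lower, with 41.8% of all genes higher and 26.2% lower. In period II, 45 were tested, 4 higher and 31 lower, with 33.2% of all genes higher and 39.1% lower. This majority depended on the scaling. After quantile normalization 5 genes were higher and 29 lower of 44 tested, with 38% of all genes higher and 34% lower. After subtraction of array medians 19 were higher and 16 lower, when 54.5% of all genes were higher and 19.2% lower. In period III, 44 were tested, 4 higher and 35 lower, against 21.7% higher and 39% lower of all genes. Subtraction of array medians left 6 higher and 23 lower, with 34.8% of all genes higher and 22.8% lower. Called the same way under all 3 scalings were 11 higher and 21 lower genes in period I, 4 and 16 in period II, 4 and 24 in period III, and 9 and 31 over the whole course. That count, and the family and list counts given below for the other scalings, use no filter on spread, which more genes then pass. With that filter dropped and array medians subtracted, 40.4% of all genes were higher and 25.3% lower in period I, 52.4% and 18.4% in period II, 33.5% and 21.8% in period III, and 59.6% and 24.5% over the whole course.

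**Figure D1:**
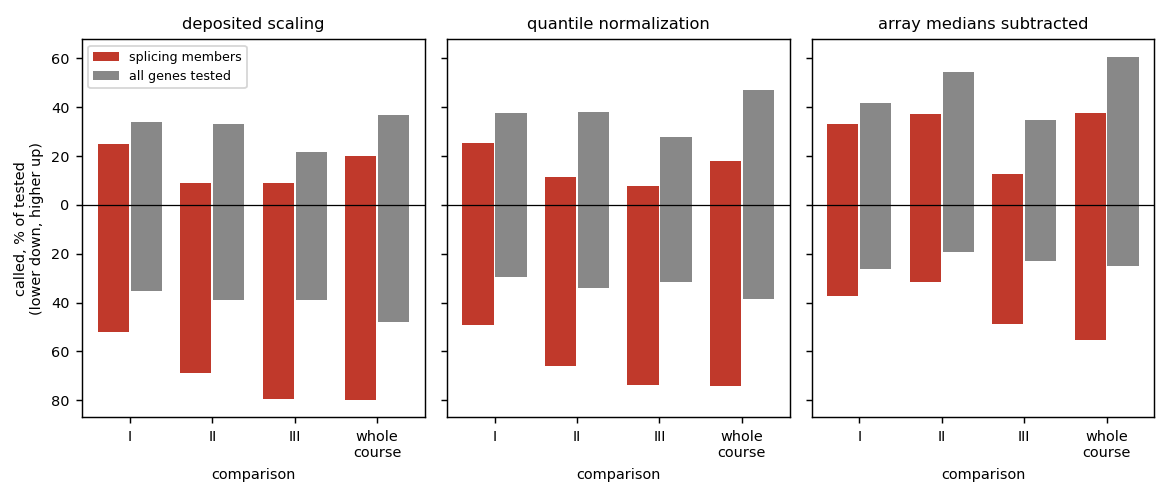
Share of the splicing genes tested (red) and of all genes tested (grey) that were called higher (above zero) or lower (below zero), in percent, for the 3 periods and the whole course under 3 scalings. Under each scaling a larger share of the splicing genes than of all genes was called lower, for example 80 against 48% over the whole course in the deposited scaling.

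The courses differed between genes. In the deposited scaling, 15 genes were called lower in all 3 periods (HNRNPA1, HNRNPA3, HNRNPDL, HNRNPH1, HNRNPH2, HNRNPR, LSM14A, PRPF4B, SF3B1, SNRPN, SRSF2, SRSF3, SRSF6, SRSF10 and SRSF11), and 4 were higher in period I and lower in periods II and III (SNRPA, SNRPD1, SNRPF and SNRPG). Among the 15, only HNRNPH1, SF3B1, SNRPN, SRSF2, SRSF3, SRSF10 and SRSF11 kept all 3 calls under every scaling. None of the 4 did. The stage mean was highest at 94 dpc in 32 genes, at 1 dpn in 16, at 28 dpn in 5 and at 188 dpn in 7, and it was lowest at 188 dpn in 43. On the chosen probe-sets it rose at every step in LSM2, LSM7 and SRSF9 alone, but the other probe-set of SRSF9 rose at no step. These courses were counted in the deposited scaling. There the array median itself fell, from a mean log2 value of 7.38 at 94 dpc to 6.73 at 188 dpn. The share of all genes with such courses is not given, so the counts do not set the splicing genes apart.

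**Figure D2:**
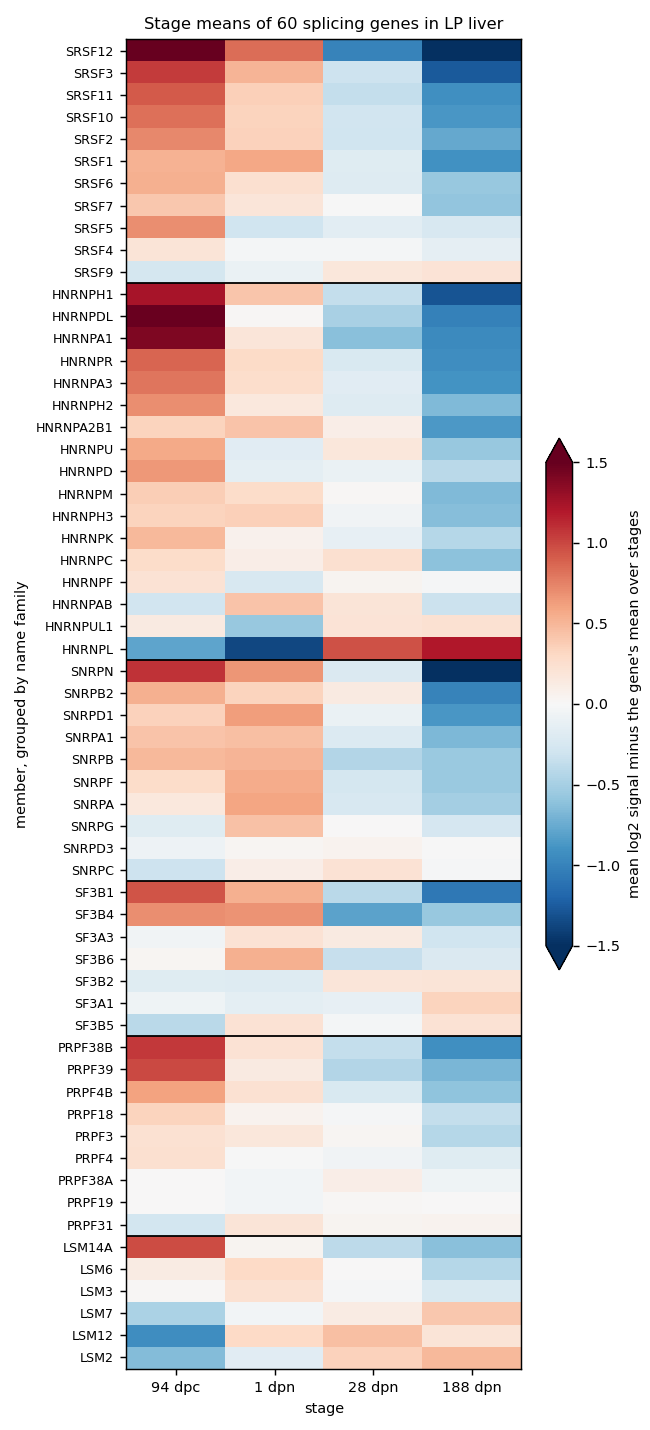
Mean log2 signal at each stage minus the gene's mean over the 4 stages (colour), for the 60 genes in rows grouped by family and ordered by their change over the whole course. The SRSF and HNRNP blocks are mostly red at 94 dpc, where 32 genes have their highest mean in the deposited scaling, and most SNRP rows are red at 1 dpn as well.

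The SR proteins fell in every period, and none was called higher in any single period. Of the 11 SRSF genes, 7 of 9 tested were lower in period I, 6 of 8 in period II, 7 of 9 in period III and 9 of 10 over the whole course, with median changes of -0.38, -0.62, -0.57 and -1.43. The shares of all genes tested that were lower were 35.4%, 39.1%, 39% and 48%. After subtraction of array medians the numbers lower were 5, 5, 6 and 8, and 1, 3, 1 and 2 were higher, of 10 tested each time. All genes then gave 25.3%, 18.4%, 21.8% and 24.5% lower and 40.4%, 52.4%, 33.5% and 59.6% higher. SRSF3, the smallest SR protein, which also takes part in mRNA export, had log2 signals between 11.89 and 12.99 (median 12.43) at 94 dpc, 11.26 and 12.60 (11.80) at 1 dpn, 10.54 and 11.48 (11.04) at 28 dpn, and 9.50 and 10.82 (10.05) at 188 dpn. Neighbouring stages overlapped, but no young adult reached the lowest fetus. The change was -0.53 ± 0.13 (SE, q = 0.00014), -0.82 ± 0.13 (q = 4.98e-07) and -0.95 ± 0.13 (q = 2.6e-07) in periods I, II and III and -2.30 ± 0.13 over the whole course.

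SRSF2, SRSF6, SRSF10 and SRSF11 fell at each step as well. The whole-course changes of SRSF2, SRSF10 and SRSF11 were -1.50 ± 0.10, -1.69 ± 0.16 and -1.84 ± 0.16, and SRSF6 changed by -0.29, -0.43 and -0.37 in the 3 periods. None of these 3 calls of SRSF6 held under every scaling, though its call over the whole course did. SRSF10 is an SR-like protein that acts as a splicing repressor when dephosphorylated. SRSF1, the founding SR protein, was not called at birth, with a change of 0.06 ± 0.11, and fell by 0.76 ± 0.11 in period II and by 0.73 ± 0.13 in period III. SRSF5 had the opposite timing. It fell by 0.99 ± 0.10 in period I (q = 1.15e-10), with every newborn below every fetus, and changed by 0.13 and -0.08 afterwards without a call. SRSF9, the SR gene with the highest mean over all arrays, was the only one called higher over the whole course (0.47 ± 0.08, q = 1.15e-07), also under the other 2 scalings. That call rests on the chosen probe-set. The other SRSF9 probe-set gave -0.01, -0.12 and -0.04 in the 3 periods and -0.17 over the whole course, with no call. SRSF12 stayed below the array median on every array and was not tested.

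The hnRNP genes held 3 of the 5 largest whole-course falls called on the chosen probe-sets (HNRNPH1, HNRNPDL and HNRNPA1). Of 17, 10 of 14 tested were lower and 1 higher in period I, 9 of 13 lower and 2 higher in period II, 13 of 14 lower and none higher in period III, and 12 of 13 lower and 1 higher over the whole course. Among all genes tested, 35.4%, 39.1%, 39% and 48% were lower and 33.9%, 33.2%, 21.7% and 36.7% higher. After subtraction of array medians, 10, 2, 10 and 12 were lower and 2, 5, 1 and 4 higher of 16 tested each time, so the fall in period II rested on the scaling. All genes then gave 25.3%, 18.4%, 21.8% and 24.5% lower and 40.4%, 52.4%, 33.5% and 59.6% higher.

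HNRNPA1, which binds exonic and intronic silencers, had log2 signals between 12.91 and 13.49 (median 13.17) at 94 dpc, 11.49 and 12.99 (11.86) at 1 dpn, 10.72 and 11.60 (11.19) at 28 dpn, and 10.25 and 11.51 (10.87) at 188 dpn. A single newborn, at 12.99, reached into the range of the fetuses. The change was -1.21 ± 0.11 (q = 4.97e-12) in period I, -0.81 ± 0.12 in period II, -0.32 ± 0.11 in period III and -2.34 ± 0.10 (q = 1.98e-21) over the whole course.

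HNRNPDL, a relative of HNRNPD that binds AU-rich RNA, lay between 12.42 and 12.94 (median 12.80) at 94 dpc, 10.54 and 11.93 (11.25) at 1 dpn, 10.32 and 11.19 (10.84) at 28 dpn, and 9.67 and 11.25 (10.15) at 188 dpn. Every newborn was below every fetus. On the chosen probe-sets its change in period I, -1.45 ± 0.11 (q = 3.49e-13), was the largest fall of any splicing gene tested in that period. The whole course gave -2.49 ± 0.12. Larger falls in period I were given by the other HNRNPDL probe-set, at -1.87, and by another probe-set of SRSF6, at -1.54. HNRNPH1, which recognises runs of G, lay between 12.32 and 12.87 (median 12.69) at 94 dpc, 10.75 and 12.28 (11.89) at 1 dpn, 10.36 and 11.85 (11.09) at 28 dpn, and 8.63 and 11.57 (10.12) at 188 dpn. Fetuses stood clear of all later animals, and the spread widened with age, from an SD of 0.17 to one of 0.80. The change was -0.83 ± 0.12, -0.77 ± 0.16 and -0.94 ± 0.22 in the 3 periods and -2.54 ± 0.20 (q = 1.5e-14) over the whole course.

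In the deposited scaling the related genes HNRNPA3, HNRNPH2 and HNRNPR also fell in each period, with whole-course changes of -1.71 ± 0.18, -1.37 ± 0.13 and -1.80 ± 0.11. After subtraction of array medians their period II changes were -0.09, 0.0070 and -0.16, with no call. HNRNPA2B1, the partner of HNRNPA1 in the core hnRNP particle, did not pass the filter on spread in period I, at a change of 0.10, fell by 0.33 ± 0.12 in period II and fell by 0.96 ± 0.14 in period III. HNRNPC, which coats nascent transcripts, likewise fell by 0.85 ± 0.10 in period III, after -0.18 and 0.14 with no call. HNRNPK, a poly(C)-binding protein and the family member with the highest mean over all arrays, fell by 0.91 ± 0.10 over the whole course. HNRNPU was below the array median on most arrays and was not tested.

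A few hnRNP genes ran against their family. HNRNPAB rose at birth from 11.34 to 11.89 (median 11.63) in fetuses to 11.98 to 12.69 (12.32) in newborns, which did not overlap. The change was 0.72 ± 0.08 (q = 5.66e-10), and after 28 dpn it fell by 0.51 ± 0.08 (q = 1.13e-06), again without overlap. HNRNPUL1, a relative of HNRNPU, fell by 0.70 ± 0.10 in period I and rose by 0.76 ± 0.09 in period II, but its dimmer probe-set, with a mean log2 signal of 5.60 over all arrays, was called in the opposite direction in both periods (1.22 and -3.42). The rise of HNRNPUL1 thus rests on 1 of its 2 probe-sets.

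HNRNPL, which binds CA-rich RNA and regulates inclusion of many exons, gave the largest rise. Its log2 signal lay between 7.38 and 10.90 (median 8.63) at 94 dpc, 7.13 and 10.80 (8.08) at 1 dpn, 10.14 and 11.52 (10.62) at 28 dpn, and 9.86 and 12.07 (11.00) at 188 dpn. The change was 2.32 ± 0.33 (q = 5.87e-08) in period II and 2.00 ± 0.34 (q = 2.23e-07) over the whole course, and it was called under all 3 scalings. The perinatal values were not continuous. Of 16 fetuses, 11 lay at or below 8.98 and 5 at or above 10.17, and of 14 newborns, 11 lay at or below 8.41 and 3 at or above 10.52, within the range of the older pigs. At 28 dpn and 188 dpn the widest gap between neighbouring animals was 0.30 and 0.24. This gap was looked for after the values were seen, and no label separates the animals on its sides.

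**Figure D3:**
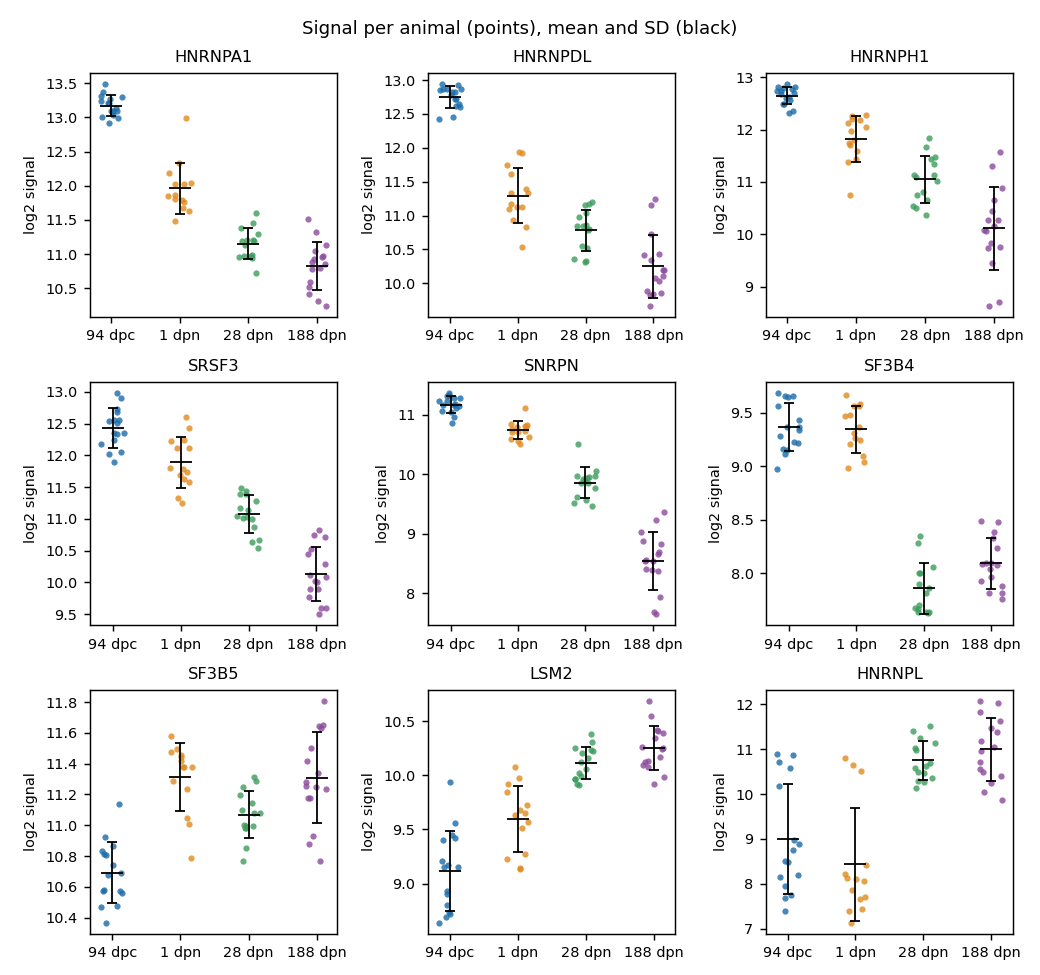
Log2 signal of 9 splicing genes in each of the 61 animals (points) by stage, with the mean and SD (black). HNRNPA1, HNRNPDL, HNRNPH1, SRSF3 and SNRPN fall, SF3B4 drops between 1 dpn and 28 dpn, SF3B5 and LSM2 rise, and HNRNPL shows 5 fetuses and 3 newborns apart from their stage at the level of older pigs.

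The genes of the snRNP proteins did not share the fall of the SRSF and HNRNP genes at birth. Of the 10 SNRP genes, 5 of 8 tested were higher and 1 lower in period I, with a median change of 0.19 (33.9% and 35.4% of all genes). After quantile normalization 4 of 10 tested were higher, close to the share of all genes, and 1 was lower (36.6% and 29.2% of all genes). Subtraction of array medians gave 6 higher and 1 lower of 10 (40.4% and 25.3% of all genes). In period II, 7 of 9 tested fell and none rose, in period III 7 of 7 tested fell, and over the whole course 7 of 8 fell and 1 rose (39.1%, 39% and 48% of all genes lower). After subtraction of array medians, 6 were lower and 2 higher in period II, 4 lower in period III, and 5 lower and 3 higher over the whole course, of 10 tested each time. All genes then gave 18.4%, 21.8% and 24.5% lower and 52.4%, 33.5% and 59.6% higher.

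The genes higher at birth included the Sm ring proteins SNRPG, SNRPF and SNRPD1 and the U1 snRNP proteins SNRPA and SNRPC. SNRPG lay between 11.41 and 12.19 (median 11.64) at 94 dpc, 11.51 and 12.82 (12.27) at 1 dpn, 11.49 and 12.15 (11.91) at 28 dpn, and 11.35 and 12.07 (11.57) at 188 dpn, so that newborns were higher with overlap. It rose by 0.62 ± 0.11 (q = 4.38e-06) and then fell by 0.43 ± 0.12 and 0.25 ± 0.09. SNRPD1 rose by 0.29 ± 0.12, and its later falls of 0.74 ± 0.13 and 0.77 ± 0.10 took it to a whole-course change of -1.22 ± 0.08. SNRPA rose by 0.43 ± 0.11 and fell by 0.82 ± 0.12 and 0.28 ± 0.10, and SNRPF rose by 0.28 ± 0.11 and fell by 0.81 ± 0.09 and 0.30 ± 0.11. Under all 3 scalings, the rise at birth was called in SNRPG, SNRPA and SNRPF but not in SNRPD1. The period II fall was so called in SNRPD1, SNRPA and SNRPF, and the period III fall in SNRPD1 alone of these genes. SNRPB, which encodes SmB, changed by 0.02 at birth (not tested for its low spread) and fell by 0.95 ± 0.10 (q = 9.49e-11) in period II, without overlap. SNRPB2, a U2 snRNP protein, fell in period III, by 1.15 ± 0.13. SNRPD3, the family member with the highest mean over all arrays, was called in no period.

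SNRPN is an imprinted gene whose product SmN can stand in for SmB and which is best known from brain. On the chosen probe-sets it had the largest whole-course fall among the splicing genes tested. Its log2 signal lay between 10.85 and 11.37 (median 11.17) at 94 dpc, 10.50 and 11.11 (10.74) at 1 dpn, 9.46 and 10.50 (9.91) at 28 dpn, and 7.65 and 9.36 (8.55) at 188 dpn. All young adults lay below all younger animals. The change was -0.43 ± 0.07 (q = 5.44e-07), -0.88 ± 0.09 (q = 1.02e-10) and -1.31 ± 0.14 (q = 2.49e-09) in the 3 periods and -2.62 ± 0.13 (q = 6.77e-20) over the whole course, and it was lower under all 3 scalings in each of them. The other probe-set of the gene gave -0.17, -0.75, -1.15 and -2.06, with calls in all but period I. Probe-sets of HNRNPH2, SRSF10 and SF3B1 that were not chosen fell further over the whole course, at -3.55, -2.95 and -2.78, all called.

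The SF3 genes, whose products form a common complex around the branch site, did not move together. Over the whole course 3 of 6 tested were higher and 3 lower, and after subtraction of array medians 5 were higher and 2 lower of 7. These few calls lay near the shares of all genes, 36.7% higher and 48% lower, and 59.6% and 24.5% after the subtraction. SF3B1, the scaffold of the complex, lay between 10.93 and 11.81 (median 11.50) at 94 dpc, 10.50 and 11.52 (11.08) at 1 dpn, 9.27 and 10.95 (10.21) at 28 dpn, and 7.86 and 10.89 (9.36) at 188 dpn. It fell by 0.41 ± 0.11, 0.93 ± 0.15 and 0.68 ± 0.22 in the 3 periods and by 2.01 ± 0.19 (q = 2.19e-12) over the whole course, and the highest young adult was just below the lowest fetus.

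SF3B4, an SF3B subunit that contacts the pre-mRNA near the branch site, changed in a single step. It lay between 8.97 and 9.69 (median 9.35) at 94 dpc, 8.99 and 9.66 (9.34) at 1 dpn, 7.63 and 8.35 (7.82) at 28 dpn, and 7.76 and 8.49 (8.08) at 188 dpn. The perinatal stages did not overlap with the later ones. On the chosen probe-sets its fall of 1.49 ± 0.09 (q = 4.6e-15) in period II was the largest of any splicing gene tested in that period. Other probe-sets of HNRNPUL1, SF3B1, HNRNPH2 and HNRNPR gave -3.42, -2.32, -2.23 and -1.61. SF3B4 rose by 0.23 ± 0.09 (q = 0.0107) in period III.

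The small subunits SF3B5 and SF3B6 rose at birth. SF3B5 lay between 10.37 and 11.14 (median 10.68) at 94 dpc, 10.79 and 11.58 (11.38) at 1 dpn, 10.77 and 11.32 (11.08) at 28 dpn, and 10.77 and 11.81 (11.27) at 188 dpn, with overlap between all stages. It rose by 0.62 ± 0.09 (q = 4.52e-08) in period I and by 0.62 ± 0.09 (q = 3.19e-08) over the whole course. SF3B6, which touches the branch point adenosine, lay between 10.55 and 11.67 (median 11.39) at 94 dpc, 11.21 and 12.58 (11.84) at 1 dpn, 10.72 and 11.25 (10.96) at 28 dpn, and 10.41 and 11.65 (11.11) at 188 dpn. It rose by 0.50 ± 0.13 (q = 0.0002) and fell back by 0.88 ± 0.12 (q = 2.35e-08), so that newborns were the high stage. Its whole-course change was -0.25 ± 0.10 but 0.40 after subtraction of array medians.

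SF3B2 rose by 0.37 ± 0.12 in period II, and SF3A1, of the SF3A complex, by 0.45 ± 0.10 (q = 0.000145) in period III. Together with LSM7, the genes called higher in period III were SF3A1, SF3B4 and SF3B5. Without the 9 arrays whose 3' to 5' differences were outlying for their stage, 1 splicing gene was called higher in that period in place of 4: SF3B4 and SF3B5, at 0.24 and 0.18, no longer passed the filter on spread, and LSM7, at 0.21, missed the threshold.

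The PRPF family of pre-mRNA processing factors had a median whole-course change of -0.66. Of 9 genes, 5 of 7 tested were lower and 1 higher in period I, 3 of 5 lower in period II, 3 of 4 lower in period III, and 6 of 7 lower and 1 higher over the whole course. The shares of all genes tested that were lower were 35.4%, 39.1%, 39% and 48%. Subtraction of array medians left 3, 0, 1 and 3 lower and 1, 4, 0 and 4 higher of 9, 9, 8 and 9 tested by limma. All genes then gave 25.3%, 18.4%, 21.8% and 24.5% lower and 40.4%, 52.4%, 33.5% and 59.6% higher. PRPF38B passed the filter on signal over the whole course through the fetal stage, where it was high, and fell by 1.97 ± 0.20. PRPF39, a U1 snRNP partner, fell by 0.85 ± 0.14 in period I and by 0.58 ± 0.16 in period II. PRPF4B, a kinase that phosphorylates spliceosomal proteins, fell in all 3 periods, with a whole-course change of -1.20 ± 0.11. PRPF31, which bridges the U4/U6 and U5 snRNPs, rose by 0.47 ± 0.11 (q = 9.64e-05) at birth and remained above the fetal level at 188 dpn (0.33 ± 0.09). PRPF19, the ubiquitin ligase of the activated spliceosome and the PRPF gene with the highest mean, had stage means of 10.36, 10.31, 10.37 and 10.35 and did not pass the filter on spread. Its whole-course value of -0.01 became 0.65 after subtraction of array medians.

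The LSM genes held 3 of the 10 whole-course rises, as many as the SF3 genes, when 36.7% of all genes tested were higher and 48% lower. LSM12, among the 3, passed the filter on signal through 188 dpn alone. Of the 6 LSM genes, 3 were higher and 1 lower of 5 tested in period I, 1 higher and 3 lower of 5 in period II, 1 higher and 3 lower of 5 in period III, and 3 higher and 3 lower of 6 over the whole course. After subtraction of array medians 5, 3, 2 and 4 were higher and 1, 0, 1 and 1 lower. All genes then gave 40.4%, 52.4%, 33.5% and 59.6% higher and 25.3%, 18.4%, 21.8% and 24.5% lower. LSM2 and LSM7 belong to the ring that binds the end of U6 snRNA and, in the cytoplasm, decaying mRNA. LSM2 lay between 8.64 and 9.94 (median 9.16) at 94 dpc, 9.14 and 10.07 (9.64) at 1 dpn, 9.91 and 10.38 (10.12) at 28 dpn, and 9.92 and 10.68 (10.25) at 188 dpn. A single fetus, at 9.94, reached the range of the young adults. The change was 0.48 ± 0.13 (q = 0.000284) in period I, 0.52 ± 0.10 (q = 4.54e-06) in period II and 1.13 ± 0.11 (q = 1.96e-12) over the whole course.

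LSM7 lay between 9.65 and 10.46 (median 9.83) at 94 dpc, 9.89 and 10.53 (10.36) at 1 dpn, 10.15 and 10.88 (10.49) at 28 dpn, and 9.97 and 11.43 (10.72) at 188 dpn, with overlapping stages. It rose by 0.43 ± 0.08 (q = 8.42e-06) in period I and by 0.87 ± 0.11 (q = 1.37e-09) over the whole course. LSM3 and LSM6, of the same ring, had whole-course changes of -0.25 ± 0.11 and -0.55 ± 0.09, both called lower in the deposited scaling, so the ring's genes did not share a direction there. This split depended on the scaling. After subtraction of array medians LSM3 changed by 0.41, called higher, and LSM6 by 0.10 without a call, while LSM2 and LSM7 stayed higher.

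LSM12, an RNA-binding protein outside the ring, lay between 4.54 and 7.90 (median 7.35) at 94 dpc, 7.71 and 9.06 (8.13) at 1 dpn, 8.02 and 8.95 (8.30) at 28 dpn, and 7.16 and 8.64 (8.16) at 188 dpn. In fetuses it was above the array median on 6 of 16 arrays, so it passed the filter on signal through the later stage, where it was high. The change was 1.23 ± 0.22 (q = 3.33e-06) in period I and 1.12 ± 0.21 over the whole course, but the other probe-set of LSM12 was called lower over the whole course, at -0.62. LSM14A, a component of cytoplasmic processing bodies, fell by 0.94 ± 0.08 (q = 2.02e-12) in period I, without overlap, and its whole-course change was -1.60 ± 0.09.

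**Figure D4:**
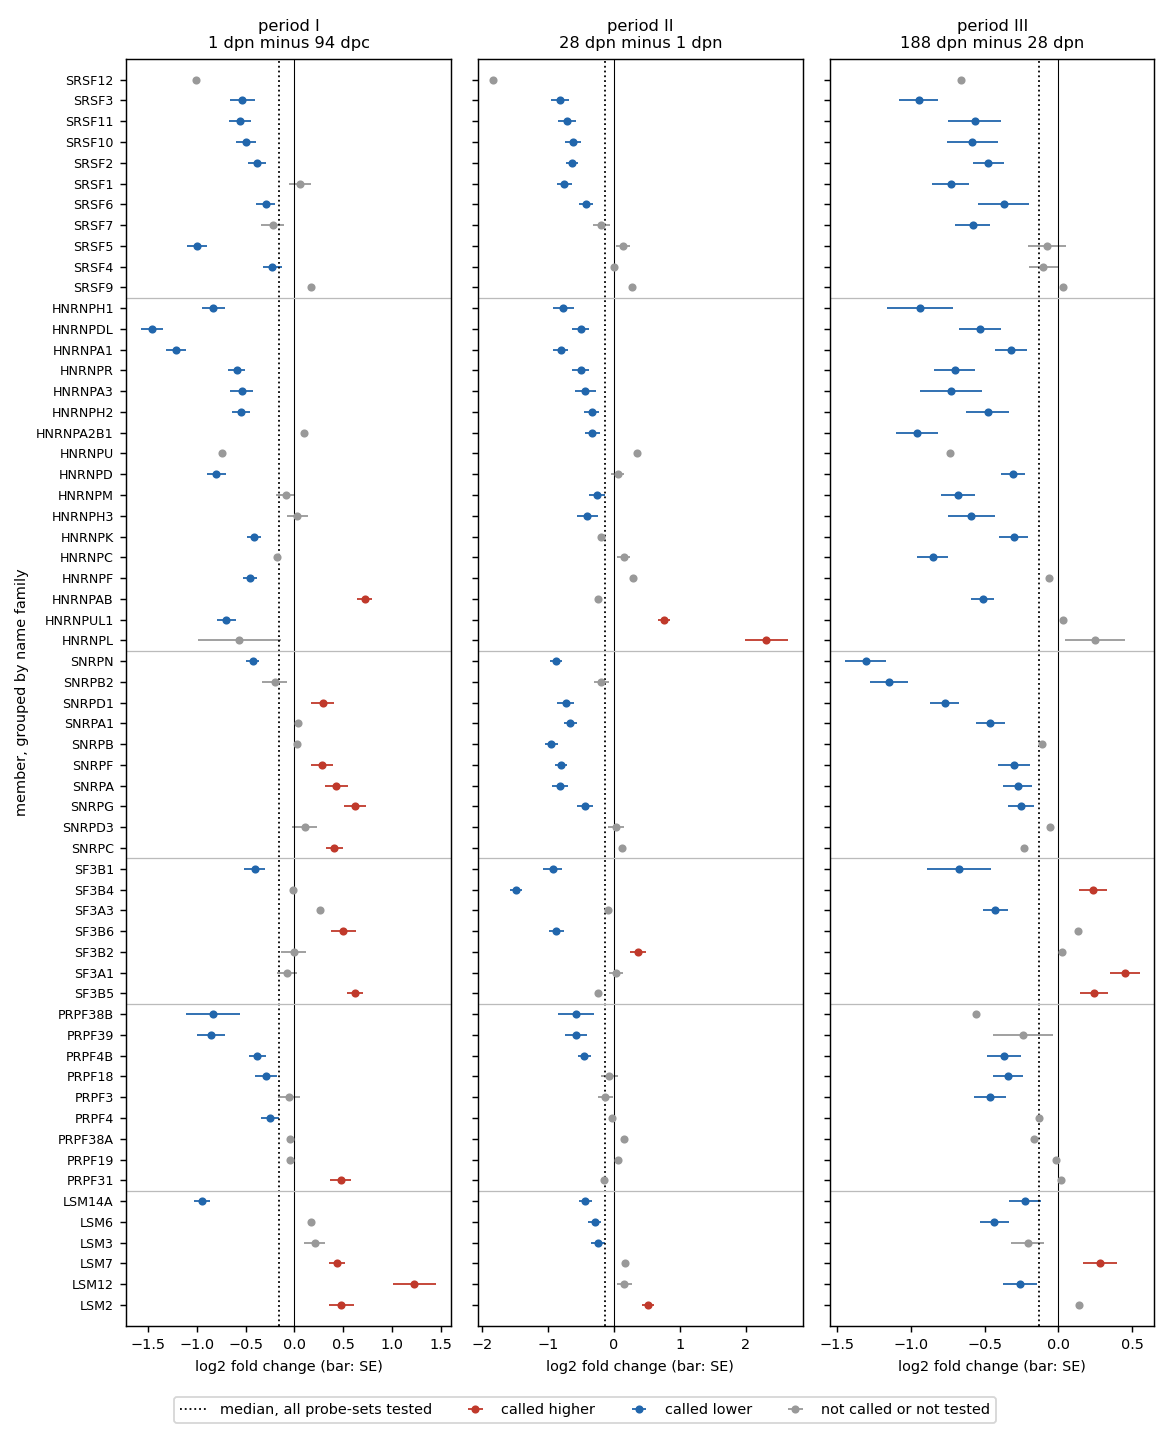
Log2 fold change with its SE for each of the 60 genes in periods I, II and III, in red where called higher, in blue where called lower and in grey where not called or not tested (no bar), with the median change of all probe-sets tested as a dotted line. In period I the SNRP, SF3 and LSM blocks hold 10 of the 12 genes called higher, and the SRSF and HNRNP blocks 17 of the 25 called lower.

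The difference between families can also be read within each array, where a shift common to all genes cancels. For this the log2 signal of each gene was set relative to its mean over all arrays, and the median over a family was compared with that of another family on the same array. SF3 minus SRSF lay between -0.84 and -0.32 in fetuses (median -0.61), -0.20 and 0.25 in newborns (-0.02), -0.30 and 0.42 at 28 dpn (0.07), and -0.01 and 1.02 at 188 dpn (0.52). Fetuses did not overlap with any later stage. LSM minus HNRNP had medians of -0.67, -0.08, 0.23 and 0.65 in order of age, and no fetus, at -1.12 to -0.13, overlapped with the young adults, at 0.01 to 1.12. SNRP minus HNRNP had medians of -0.24, 0.29, 0.05 and 0.25, and its values at 188 dpn, from -0.64 to 0.68, overlapped with those of every other stage. Quantile normalization, which moves genes by their intensity, gave medians of -0.67, 0.06, 0.18 and 0.54 for SF3 minus SRSF, -0.94, -0.12, 0.26 and 0.67 for LSM minus HNRNP, and -0.41, 0.27, 0.03 and 0.13 for SNRP minus HNRNP, an alternative chosen after seeing the data. The families were set by name, and these values are a description with no test.

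**Figure D5:**
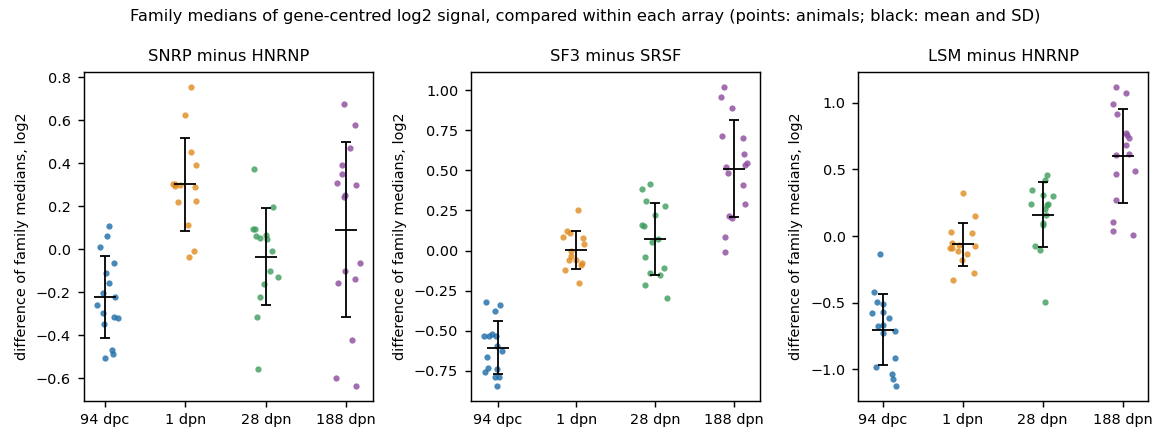
Difference between the medians of 2 gene families on the same array, in log2 signal relative to each gene's mean over all arrays, for each animal (points) by stage with the mean and SD (black). SF3 minus SRSF and LSM minus HNRNP increase from the fetuses (medians -0.61 and -0.67) to the young adults (0.52 and 0.65), and SNRP minus HNRNP has medians of -0.24, 0.29, 0.05 and 0.25 with wide overlap at 188 dpn.

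Several probe-sets of 1 gene did not always move alike. Of the 21 genes with several, 18 had at least 2 above the array median in period I, and 1 of them, HNRNPUL1, had probe-sets called in opposite directions. In period II there were 3 such genes of 18 (HNRNPA2B1, HNRNPUL1 and SRSF6), in period III none of 16, and over the whole course 1 of 17, LSM12. Changes of differing sign, called or not, were found in 6 genes in period I, 6 in period II, 3 in period III and 3 over the whole course. The 3 probe-sets of SRSF1 gave -0.76, -1.48 and -0.98 in period II, all called, and the 6 probe-sets of SRSF6 gave whole-course changes between -2.27 and -0.66, all called lower.

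Genes that work with these families were counted from 4 further lists, to be read against all genes over the whole course, 36.7% higher and 48% lower in the deposited scaling and 59.6% higher and 24.5% lower after subtraction of array medians. Among other spliceosome components, 38 of 72 listed genes were on the array, and 4 were higher and 24 lower of 29 tested over the whole course in the deposited scaling, but 17 higher and 13 lower after subtraction of array medians. SF1, which recognises the branch site before U2 snRNP arrives, and DHX15, a helicase that takes spent spliceosomes apart, fell by 1.99 ± 0.25 and 1.90 ± 0.12. DDX46, a helicase that acts with U2 snRNP, fell by 1.00 ± 0.17 at birth, while XAB2 rose by 0.78 ± 0.23 at birth and fell by 1.71 ± 0.28 in period II. XAB2 passed the filter on signal through 1 dpn alone, where it was high, and DDX46 in period I and SF1 over the whole course passed through 94 dpc alone, so that these genes had to differ. CWC27 and PPWD1, both cyclophilin-type spliceosome proteins, fell by 1.80 ± 0.30 and 1.18 ± 0.20 over the whole course.

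Of the exon junction and cap-binding genes, 18 were on the array, and 7 were higher and 3 lower of 14 tested at birth (33.9% and 35.4% of all genes), but 1 higher and 9 lower of 12 over the whole course, or 9 higher and 3 lower after subtraction of array medians. DDX39B, the helicase that loads export factors on spliced mRNA, rose by 0.76 ± 0.12 at birth and fell by 2.87 ± 0.12 in period II. That fall exceeded those of all genes of the 6 families tested in that period on their chosen probe-sets. The dimmer probe-set of HNRNPUL1, at -3.42, fell further. DDX39A, the paralogue of DDX39B, rose by 0.57 ± 0.13 at birth and fell by 0.70 ± 0.14 in period II. The export factor NXT1 rose by 0.58 ± 0.10 at birth, MAGOH of the exon junction core fell by 1.12 ± 0.08 over the whole course, and NCBP2, the small cap-binding subunit, fell by 0.63 ± 0.14 in period III.

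Other RNA-binding splicing regulators gave 6 higher and 22 lower of 30 tested over the whole course, and 15 higher and 15 lower after subtraction of array medians. The paraspeckle protein PSPC1 fell by 2.91 ± 0.23 and the nuclear matrix protein MATR3 fell by 2.39 ± 0.19. PSPC1 passed the filter on signal through 94 dpc alone. RBM3, a cold-induced RNA-binding protein, fell by 1.00 ± 0.15 at birth and by 1.65 ± 0.12 in all. MBNL3, of the muscleblind family, fell by 1.89 ± 0.19 and ZRANB2 by 1.86 ± 0.20. Against these, YBX3 rose by 1.15 ± 0.21 at birth, and ELAVL1, which stabilises AU-rich mRNA, rose by 1.35 ± 0.08 in period II.

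Of the genes for SR protein kinases and snRNP assembly, 0 were called higher and 13 lower by limma of 14 tested over the whole course, but 5 were higher and 6 lower after subtraction of array medians. CLK1 and CLK4, kinases that phosphorylate SR proteins in the nucleus, had changes of -0.83 ± 0.14 and -1.17 ± 0.16 at birth and of -1.70 ± 0.21 and -1.64 ± 0.22 over the whole course, all called lower. TNPO3, which imports SR proteins, rose by 0.99 ± 0.12 at birth and fell by 1.13 ± 0.11 in period II. PHAX, which exports new snRNAs, fell by 1.61 ± 0.14, and LARP7, which binds small nuclear RNAs, fell by 2.39 ± 0.17, the latter having passed the filter on signal through 94 dpc alone.

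Proliferation genes moved with the later falls. Of 26 on the array, 6 were higher and 2 lower of 23 tested in period I, 0 higher and 18 lower of 23 by limma in period II, and 0 higher and 22 lower of 22 in period III, where subtraction of array medians also gave 22 lower. All genes tested gave 33.9%, 33.2% and 21.7% higher and 35.4%, 39.1% and 39% lower in these periods. The summed signal of the 26 proliferation genes ranged from 28880 to 60380 in fetuses, 33210 to 84800 in newborns, 23630 to 66590 at 28 dpn and 13500 to 17460 at 188 dpn. At 28 dpn 21 of them had a mean above the array median, and at 188 dpn 9. Genes below it at 188 dpn could pass the filter on signal in period III through 28 dpn alone, and such genes had to fall. Markers of immune cells changed in both directions in period II, when 33.2% of all genes tested were higher and 39.1% lower. Of T and NK cell markers 7 of 8 tested were higher and 0 lower, and of macrophage markers 6 were higher and 1 lower of 9. Granulocyte markers gave 0 higher and 6 lower of 6, and the 1 B cell marker tested was higher. Of 11 T and NK cell markers on the array, 1 had a mean above the array median at 1 dpn and 8 at 28 dpn. For 7 granulocyte markers these numbers were 6 and 2, and the B cell marker tested was below it at 1 dpn. Markers below the array median at 1 stage could pass the filter on signal through the other alone, and such markers had to differ. The part of these cells and of cell division in the courses of the splicing genes was not tested.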

How the data were processed

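Liver RNA of 61 LP animals was hybridised to Affymetrix porcine arrays. Each deposited value is a linear signal intensity of a probe-set, which the authors made and globally scaled with GCOS 1.1.1 per the submitters' processing notes: the mean after trimming 2% of probe-sets at each end was 500.127 to 500.229 on every array. The number of arrays limits the precision. GC-RMA values and MAS5 calls of the published methods were not used here. The labels do not give sex, mother or weight. Of 24123 probe-sets, 124 are controls and 10069 carried 1 symbol in the platform annotation. All 60 splicing genes were found in the RefSeq gene table of the pig, used for names alone.

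Intensities were taken to log2. Filtering kept probe-sets that exceeded the array median in 50% or more of the animals of either stage and whose SD over the arrays compared exceeded 0.25. In period I, 10 of the 60 genes fell to the SD filter and 2 (HNRNPU and SRSF12) to the intensity filter. Stages were compared across all probe-sets with limma 3.58.1 in R 4.3.3, later minus earlier, in a two-sided test with no term other than stage. Calls required that P and the q-value of Storey and Tibshirani were each no more than 0.05 (lambda from 0.05 to 0.95, step 0.05, cubic spline of 3 df). Percentages of all genes use 1 probe-set per gene. The fit was tested on simulated data. Array weights used statmod 1.5.0, and matplotlib 3.10.9 drew the figures under Python 3.11.15.

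The genes, gene lists and marker lists were chosen with earlier results of these data known. Named genes are the 5 called genes with the largest rise and fall in each comparison, genes called in all 3 periods, the gene with the highest mean per family, and the 2 called genes with the largest change per further list and comparison. Other genes (SF3B2, SF3A1, HNRNPC, SNRPC, PRPF31, SRSF1, SRSF12, HNRNPU, LSM3 and LSM6 among them) were named after their values were seen. Alternatives numbered 14, with 3 more chosen after seeing the data.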

Additional observations from a re-analysis of the deposited data

How the results depend on the processing

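No paired analysis was possible because the replicate numbers of the labels run through all stages without repeating. Benjamini-Hochberg adjustment joined to a limit of 1 on the size of the log2 change left 1 splicing gene higher and 2 lower in period I, 1 and 1 in period II, 0 and 2 in period III, and 3 and 26 over the whole course, by limma, because it asks for larger changes. At an unadjusted P of 0.05 with no fold limit, 4 genes were higher in period III. Subtraction of array medians moved the median change of the 60 genes to -0.047 in period I, 0.071 in period II (a reversed sign) and -0.30 over the whole course, with 19 higher and 16 lower in period II, 23 lower in period III and 21 higher over the whole course. The same with no SD filter, chosen after seeing the data, gave medians of -0.047, 0.071 and -0.30, with 20 higher and 16 lower in period II, 8 higher in period III and 22 higher over the whole course. Quantile normalization with no SD filter, also chosen after seeing the data, gave 7 higher in period II. Without the 9 arrays of unusual 3' to 5' difference, 1 gene was higher in period III. Among the genes named by rule, single genes changed sign as follows. When all probe-sets of a gene were averaged, HNRNPUL1 became 0.26, -1.33 and -1.42 in periods I and II and over the whole course, LSM12 -0.27 in period II and SNRPG 0.021 in period III. After subtraction of array medians, with and without the SD filter, HNRNPA2B1 became 0.017 and HNRNPH2 0.0070 in period II, and HNRNPAB 0.62, SNRPG 0.58, SF3B6 0.40 and PRPF19 0.65 over the whole course. After quantile normalization, with and without the SD filter, SNRPD3 became -0.26 over the whole course. The cause of these reversals was not tested. The other counts of splicing genes stayed within 1.5 times under the remaining alternatives.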
